A study of Mus musculus with 21 samples.

Results

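Polystyrene nanoplastics are plastic particles of nanometre size, and the left ventricle is the chamber that pumps blood into the body. The comparison described here set the left ventricles of 4 nanoplastics mice against those of 3 control mice, 1 bulk RNA library per mouse, which is 7 of the 21 libraries of the series. Libraries were chosen by their labels alone. Both groups were adult male wild-type mice kept for 8 weeks, the nanoplastics mice on polystyrene nanoplastics and the control mice on distilled water. The sources used here do not give the strain, the exact age, the route, the dose or the particle size. Hearts were flushed with cold buffer before being divided, and the other 14 libraries come from the right ventricular and atrial sections of the same mice.

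Heart muscle cells contract through sarcomeres, ordered stacks of myosin and actin filaments held in place by the giant protein titin. Each beat is set off by calcium released from internal stores and is paid for almost wholly by mitochondria, which oxidise fatty acids and sugars and pass the electrons through the respiratory complexes. A few subunits of those complexes are encoded in the mitochondrial genome and made inside the organelle, and the rest are encoded in the nucleus and imported. The comparison asks which of these systems, at the level of their transcripts, differed in the left ventricle after 8 weeks of exposure.

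The nanoplastics libraries held 924621 to 1689813 counts and 12018 to 12995 detected genes, against 413436 to 2439314 counts and 10234 to 14599 genes in the control libraries. Control mouse 3 was the shallow library, where 3 counts correspond to 7.26 CPM (counts scaled to a fixed library total), and the other 6 libraries reached 3 counts at 1.23 to 3.24 CPM. No pair of libraries agreed within sampling noise, the lowest chi-square per degree of freedom being 1.98. Ventricular muscle was present in every library: Myl2, the ventricular myosin light chain, lay at 8804 to 13673 CPM in nanoplastics mice and 7792 to 9907 CPM in control mice. The cell type markers used here do not tell the left ventricle from the right. Atrial muscle transcripts stood out in 1 library. Myl7, the atrial light chain, was at 781 CPM in nanoplastics mouse 4, at 24.2 CPM in control mouse 3, and at 4.12 CPM or less in the other 5 libraries, and the 10 atrial markers summed to 82.8, 164, 191 and 2296 CPM in nanoplastics mice 1 to 4 against 149, 81.8 and 356 CPM in control mice 1 to 3. Of those 10 markers, Bmp10 and Gja5 were at or below 0.961 CPM in all libraries, nanoplastics mouse 4 included. Kcnj3 was at 20.5 CPM in nanoplastics mouse 4, inside the 12.4 to 25.8 CPM of the other libraries.

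Counts of genes were compared with edgeR's quasi-likelihood test on 5440 genes, and p-values measure the spread between mice. A gene is called here at a Benjamini-Hochberg adjusted p under 0.05, and the log2 differences below are nanoplastics over control. Only 3 genes, or 0.0551% of those tested, were called, 2 higher (0.0368%) and 1 lower (0.0184%). At an unadjusted p under 0.05 there were 768 genes (14.1%), of which 366 (6.73%) were higher and 402 (7.39%) lower in nanoplastics mice. The median log2 difference of all genes was -0.02. DESeq2 on the same 5440 genes called 80 (1.47%), of which 72 were higher and 8 lower. Its filter on mean counts gave many genes no adjusted p, Neat1, Stub1, Esrra and Eef2 among them. Such genes could not be called by DESeq2, so the 80 are not a share of 5440 genes that it could call.

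The called genes were mt-Nd2 and mt-Nd4, which encode membrane subunits of respiratory complex I in the mitochondrial genome, and Neat1, a long noncoding RNA of the nucleus around which paraspeckles assemble. Levels of single genes are given as CPM scaled by the trimmed mean of M-values. The level of mt-Nd2 was 23309, 26476, 23661 and 22938 CPM in nanoplastics mice 1 to 4, against 17081, 14346 and 14759 CPM in control mice 1 to 3. It rose by 0.65 on the log2 scale (SE 0.12, edgeR adjusted p = 0.0414), and the lowest nanoplastics value lay above the highest control value. For mt-Nd4 the levels were 15934, 21088, 15765 and 20911 CPM in nanoplastics mice, against 10684, 12389 and 11432 CPM in control mice. It rose by 0.68 (SE 0.13, edgeR adjusted p = 0.0414), again without overlap. Neat1 stood at 5.36, 17.9, 6.08 and 14.4 CPM in nanoplastics mice, against 42.6, 30.8 and 22.7 CPM in control mice. It fell by 1.74 on the log2 scale (SE 0.32, edgeR adjusted p = 0.0414), and every nanoplastics library lay below every control library. These Neat1 levels rest on 8, 17, 7 and 13 counts in nanoplastics mice, against 100, 74 and 10 counts in control mice.

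All 3 calls kept their direction in each of the alternatives in which the gene was tested, and none was called in all of them. Adjusted p over those alternatives ran from 1.78e-04 to 0.399 for mt-Nd2, which was called in 8 of 18, from 8.91e-05 to 0.435 for mt-Nd4, called in 5 of 18, and from 1.49e-05 to 0.322 for Neat1, called in 9 of 16. DESeq2 called mt-Nd2 and mt-Nd4, and for Neat1 it gave a log2 difference of -1.65 (SE 0.40) and no adjusted p. Leaving out nanoplastics mouse 1 gave 0 called genes (576 at an unadjusted p under 0.05), as did leaving out nanoplastics mouse 3 (840) or control mouse 2 (519). Leaving out control mouse 1 gave 1 called gene. Leaving out the shallow control mouse 3 gave 21 (0.338%), of which 5 were higher and 16 lower, and leaving out nanoplastics mouse 4 as well gave 31 (0.478%), of which 9 were higher and 22 lower.

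The next 7 genes by p did not pass the threshold and had adjusted p between 0.0773 and 0.0776, and in each of them the groups did not overlap. Over all genes tested, 338 genes (6.21%) were higher and 329 (6.05%) lower without overlap. Ttn, the gene of titin, was at 1497, 1271, 1574 and 2073 CPM in nanoplastics mice, against 779.7, 977 and 1156 CPM in control mice, a log2 difference of 0.73 (SE 0.16, edgeR adjusted p = 0.0773). Ttn was the only gene of these 7 that was higher in nanoplastics mice. It was called as higher in 5 of 18 alternatives, DESeq2 among them (DESeq2 adjusted p = 0.0113).

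The other 6 were lower. Stub1 encodes CHIP, a ubiquitin ligase that works with chaperones to clear damaged proteins. Its levels were 49.6, 54.8, 46.9 and 57.6 CPM in nanoplastics mice, against 110.7, 83.1 and 93.1 CPM in control mice, a log2 difference of -0.88 (SE 0.19, edgeR adjusted p = 0.0773). Serpinh1 encodes HSP47, the collagen chaperone of the endoplasmic reticulum. It was at 21.4, 21.1, 28.7 and 23.3 CPM in nanoplastics mice, against 46.4, 50.7 and 40.9 CPM in control mice, a log2 difference of -0.99 (SE 0.22, edgeR adjusted p = 0.0773). Esrra encodes a nuclear receptor that drives genes of mitochondrial metabolism. Its levels of 7.37, 10.5, 11.3 and 7.76 CPM in nanoplastics mice, against 30.2, 17.9 and 20.4 CPM in control mice, gave a log2 difference of -1.35 (SE 0.30, edgeR adjusted p = 0.0773). Rhobtb1, which encodes an atypical small GTPase, differed by -1.39 (SE 0.30), with 6.70, 5.27, 7.82 and 7.76 CPM in nanoplastics mice and 19.6, 17.5 and 15.9 CPM in control mice. Mid1ip1, whose product promotes fatty acid synthesis through acetyl-CoA carboxylase, differed by -1.32 (SE 0.29), with 13.4, 16.8, 22.6 and 5.54 CPM in nanoplastics mice and 31.5, 46.1 and 29.5 CPM in control mice. C1qbp, a protein of the mitochondrial matrix, differed by -0.78 (SE 0.18), with 53.6, 66.3, 58.2 and 63.2 CPM in nanoplastics mice and 104.8, 106.4 and 95.4 CPM in control mice. Each of the 6 was called as lower in some alternatives. These were 5 of 17 for Serpinh1 and Mid1ip1, 5 of 16 for Rhobtb1, 4 of 18 for Stub1, 4 of 16 for Esrra and 2 of 18 for C1qbp. DESeq2 gave none of the 6 an adjusted p. In the annotation Esrra overlaps Trmt112 on the opposite strand and Stub1 overlaps Jmjd8 likewise, and the sources used here do not state whether counting used strand.

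**Figure D1:**
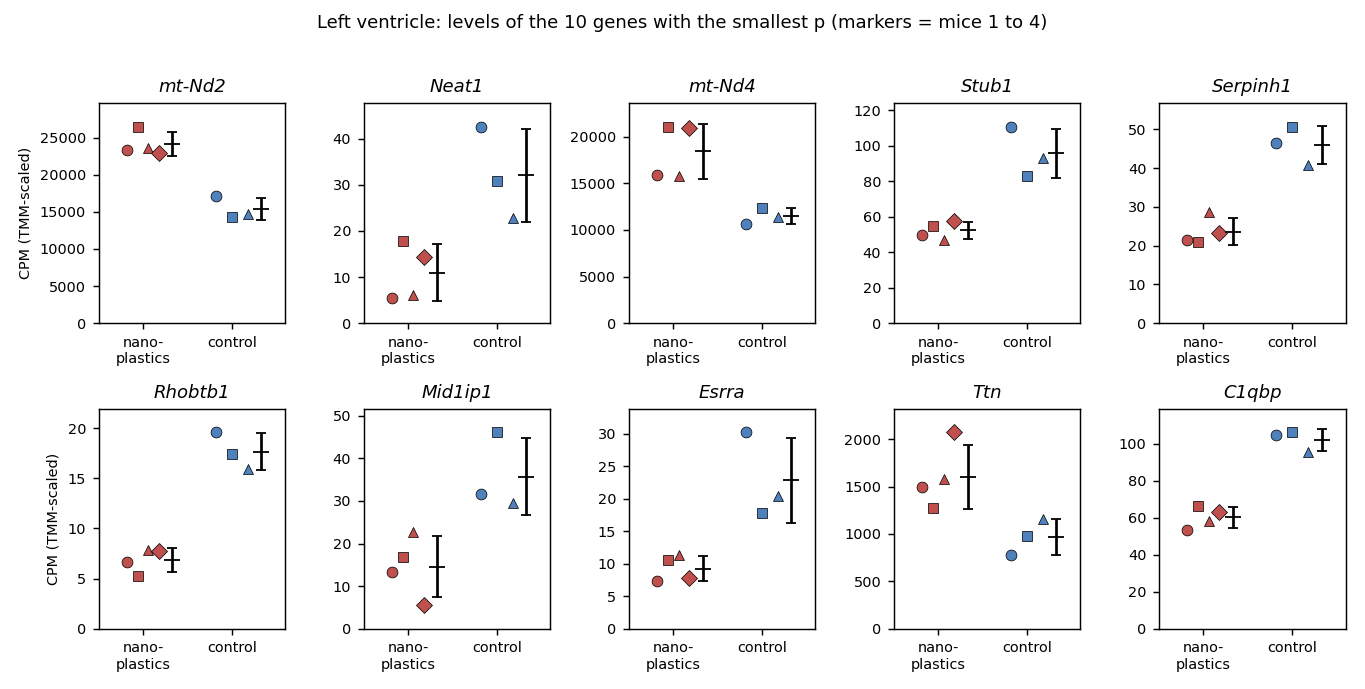
Levels in CPM (TMM-scaled, linear axes from 0) of the 10 genes with the smallest p, 1 panel per gene, nanoplastics mice at the left and control mice at the right. Points are mice, marked by shape for mice 1 to 4, and bars are the mean and SD; mt-Nd2, mt-Nd4 and Ttn lie higher and the other 7 lower in nanoplastics mice, without overlap.

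Of the 15 genes in the list of mitochondrially encoded transcripts, 10 passed the count filter, and 6 of these 10 were higher and none lower at an unadjusted p under 0.05. Over all genes tested, 6.73% were higher and 7.39% lower. The median log2 difference of the 10 was 0.35, against -0.02 over all genes tested. The complex I subunits were not uniform. The log2 differences were 0.18 for mt-Nd1 (SE 0.20), 0.40 for mt-Nd3 (SE 0.14), 0.34 for mt-Nd5 (SE 0.19) and -0.24 for mt-Nd6 (SE 0.29), beside the 0.65 and 0.68 of mt-Nd2 and mt-Nd4. Of these 4, mt-Nd3 had the smallest edgeR adjusted p, at 0.175. The sign of mt-Nd6 rested on control mouse 1, without which the difference was 0.23. It is the subunit encoded on the other strand of the mitochondrial genome.

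The 12S and 16S ribosomal RNAs of the mitochondrion were also among the higher ones. Levels of mt-Rnr1 were 8166, 9650.4, 7477 and 7129 CPM in nanoplastics mice, against 6520, 5162 and 6062 CPM in control mice, a log2 difference of 0.45 without overlap (SE 0.13, edgeR adjusted p = 0.138). For mt-Rnr2 the difference was 0.37 (SE 0.15, edgeR adjusted p = 0.23). Cytochrome b of complex III, mt-Cytb, was at 81995, 84016, 79786 and 53373 CPM in nanoplastics mice, against 66938, 56687 and 60107 CPM in control mice, a difference of 0.29 (SE 0.14, edgeR adjusted p = 0.345). Here nanoplastics mouse 4 lay below all control mice and the other 3 nanoplastics mice above them. The catalytic subunit of complex IV, mt-Co1, gave 95390, 79495, 78228 and 49356 CPM in nanoplastics mice, against 120360, 60801 and 61406 CPM in control mice, a difference of -0.10 (SE 0.34, edgeR adjusted p = 0.932). Control mouse 1 lay above and nanoplastics mouse 4 below all other libraries, and leaving out control mouse 1 gave 0.34.

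The share of all counts that fell on mitochondrially encoded genes was 31.2, 32.1, 30.6 and 24.0% in nanoplastics mice and 34.0, 25.8 and 25.3% in control mice. The means of 29.5 ± 3.69% and 28.4 ± 4.86% (SD over 4 and 3 mice) did not differ beyond the spread between mice (exact two-sided permutation p = 0.743, where the smallest p that the 35 splits allow is 0.0286). The share of library totals on all these genes together was therefore close between groups, while mt-Nd2 and mt-Nd4 were higher on TMM-scaled levels. With libraries scaled by their totals alone neither gene was called, but both stayed higher. Over all 18 alternatives, that scaling included, the log2 difference was at least 0.47 for mt-Nd2 and 0.49 for mt-Nd4. At that scaling the median of the 10 mitochondrially encoded genes was 0.18, against -0.21 over all genes. Not all mitochondrial genes could be read from the table. mt-Co2, mt-Co3, mt-Atp6 and mt-Nd4l had 41, 24, 25 and 11 counts over all 7 libraries, and each has an annotated nuclear copy identical over about its whole length, with 178, 183, 101 and 77 counts. mt-Atp8 had 5 counts, and no copy of it was found. mt-Nd3 held 10183 counts although a copy is 99.7% identical to it over 99.1% of its length. A link between copies and missing counts was not tested. mt-Nd4 is identical to its nuclear copy Gm28439 over 63.6% of its length, yet held 140742 counts in the 7 libraries, and that copy held 47. The sources used here do not state how reads that match both were counted, and its part in the mt-Nd4 difference was not tested.

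**Figure D2:**
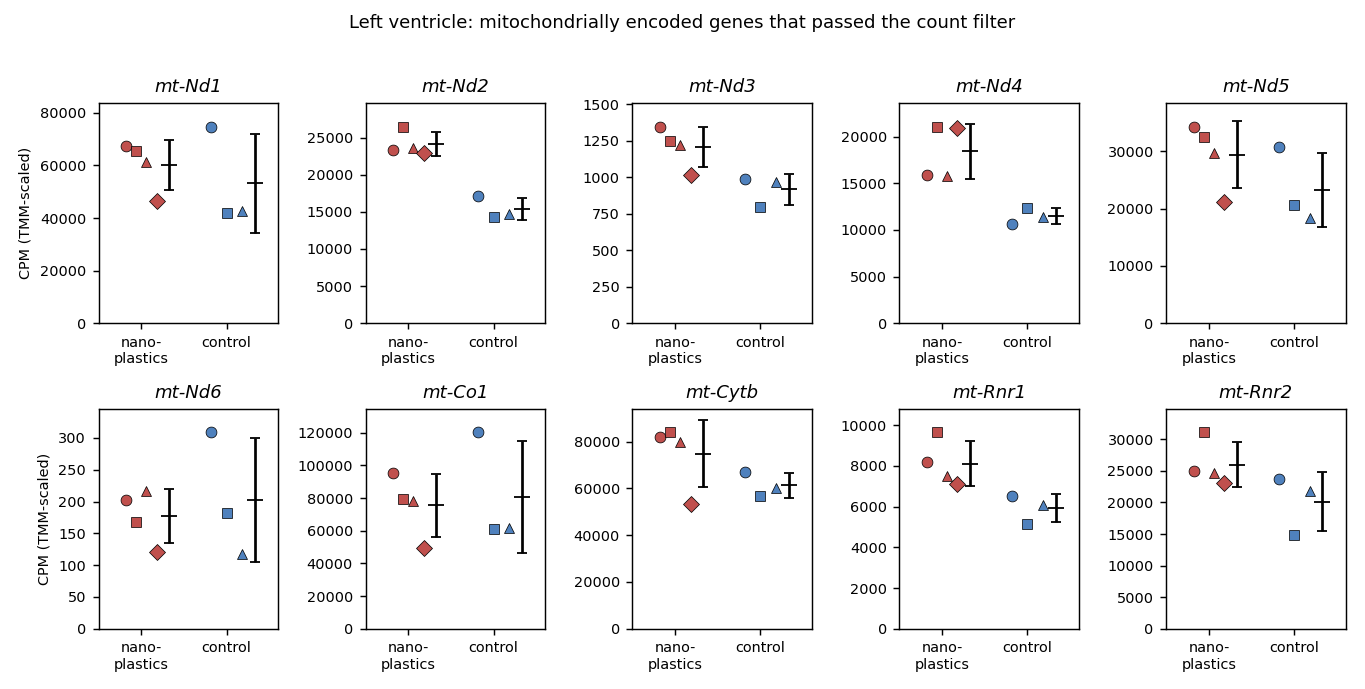
Levels in CPM (TMM-scaled, linear axes from 0) of the 10 mitochondrially encoded genes that passed the count filter, nanoplastics mice at the left and control mice at the right, with the mean and SD. mt-Nd2, mt-Nd3, mt-Nd4 and mt-Rnr1 show no overlap between groups, and in the panels of mt-Nd1, mt-Nd6 and mt-Co1 control mouse 1, the circle, lies above every other library.

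Nuclear genes of the respiratory chain were on the whole higher in nanoplastics mice by a small amount, and none was called by edgeR. Of 36 nuclear complex I genes tested, 18 were higher and none lower at an unadjusted p under 0.05, with a median log2 difference of 0.27. Of 46 genes of complexes II to V, 23 were higher and 2 lower, also with a median of 0.27. The shares over all genes tested were 6.73% higher and 7.39% lower. DESeq2 called 8 and 10 of these respiratory genes, all higher, against 80 of all 5440 genes (1.47%). Ndufv3, a subunit near the NADH-binding end of complex I, was at 2807, 2299, 2097 and 2584 CPM in nanoplastics mice, against 1603, 1525 and 1844 CPM in control mice, a log2 difference of 0.56 without overlap (SE 0.13, edgeR adjusted p = 0.0865). Ndufa3, another subunit of complex I, differed by 0.54 (SE 0.14, edgeR adjusted p = 0.115).

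Cox6a2 encodes the muscle form of a complex IV subunit. It was at 13678, 10940.4, 9167 and 14119.9 CPM in nanoplastics mice, against 5714, 5694 and 9444 CPM in control mice, a log2 difference of 0.79 (SE 0.20, edgeR adjusted p = 0.138). Its groups overlapped through the shallow control mouse 3 alone. Cox6b1, a complex IV subunit, differed by 0.47 (SE 0.12) and Atpif1, the inhibitor of the ATP synthase, by 0.49 (SE 0.13), both with an edgeR adjusted p of 0.138. Without control mouse 2 the higher members numbered 10 in complex I and 12 in complexes II to V, and 246 of all 5451 genes (4.51%) were higher. With libraries scaled by their totals alone the medians were 0.09 and 0.09, beside -0.21 for all genes.

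The same held for the proteins of the cytosolic ribosome. Of 76 genes tested, 45 (59.2%) were higher and 1 lower at an unadjusted p under 0.05, with a median log2 difference of 0.33, and 71 of the 76 lay above 0. Among all genes tested, 6.73% were higher and 7.39% lower. No member was called by edgeR, and DESeq2 called 12, all higher, against 80 of all 5440 genes (1.47%). Rps28 was at 279, 300.1, 222 and 306 CPM in nanoplastics mice, against 206, 163 and 168 CPM in control mice, a log2 difference of 0.62 (SE 0.16, edgeR adjusted p = 0.138). Rpl35 was at 1148, 1135, 1043 and 1159 CPM in nanoplastics mice, against 739.7, 784 and 886 CPM in control mice, a difference of 0.49 (SE 0.13, edgeR adjusted p = 0.138). Both showed no overlap between groups. The member that went the other way was Rpl8, at -0.39 (SE 0.17, edgeR adjusted p = 0.272).

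This count moved with single libraries and with the scaling. It was 18 of 76 without control mouse 2, where 4.51% of all genes were higher. It was 64 without control mouse 1, where 386 of 5621 genes (6.87%) were higher, and 25 without nanoplastics mouse 4 and control mouse 3, where 424 of 6483 (6.54%) were. With libraries scaled by their totals alone, 7 members were higher and 4 lower and the median was 0.16. At that scaling 76 of all 5440 genes (1.4%) were higher and 894 (16.4%) lower, with a median of -0.21. The share of a library's counts on these genes was 5.17 ± 0.523% in nanoplastics mice and 4.68 ± 0.308% in control mice (SD over 4 and 3 mice).

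Ribosomal protein mRNAs are known for starting in a run of pyrimidines, through which their translation is set by nutrient signals. Since 71 of the 76 members had the same sign, the starts of 4 are shown, the higher ones with the smallest p and a single annotated start, from 45 bases before to 20 bases from the start annotated by RefSeq on GRCm38.p6. The capitals mark CTTTT or CTTTC, searched on the transcript's strand alone within 20 bases on either side of the start.
Rps28, chr17:33824543-33824607, minus strand: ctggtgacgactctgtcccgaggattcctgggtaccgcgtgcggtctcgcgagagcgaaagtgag
Rpl35, chr2:39005112-39005176, minus strand: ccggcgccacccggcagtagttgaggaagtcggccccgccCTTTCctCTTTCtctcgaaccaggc
Rpl37a, chr1:72711215-72711279, plus strand: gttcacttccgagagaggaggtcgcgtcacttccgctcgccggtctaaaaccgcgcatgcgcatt
Rpl41, chr10:128549149-128549213, minus strand: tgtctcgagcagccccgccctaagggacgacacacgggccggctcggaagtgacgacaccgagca
Of these 4 genes only Rpl35 holds the motif in its window. Of the 59 ribosomal protein genes with a window in the table, 23 (39.0%) hold either motif, against 2942 of 27025 genes (10.9%) over all windows. The motif is a property of the list and was not set against the change of its members.

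Sarcomere genes leaned the same way. Of 35 tested, 9 (25.7%) were higher and none lower at an unadjusted p under 0.05, against 6.73% and 7.39% over all genes tested. The median log2 difference was 0.30. None was called by edgeR, and DESeq2 called 5, all higher, against 80 of all 5440 genes (1.47%). Tnni3, cardiac troponin I, was at 23471, 20755, 20878 and 20714 CPM in nanoplastics mice, against 14708, 14568 and 15747 CPM in control mice, a log2 difference of 0.52 without overlap (SE 0.12, edgeR adjusted p = 0.0776). Xirp2, an actin-binding protein of the intercalated disc, was at 479, 587, 574 and 662 CPM in nanoplastics mice, against 317, 450.0 and 399.8 CPM in control mice, a difference of 0.56, also without overlap (SE 0.15, edgeR adjusted p = 0.138). Myl2 differed by 0.52 (SE 0.14, edgeR adjusted p = 0.138). Tnnc1, troponin C, differed by 0.52 (SE 0.18, edgeR adjusted p = 0.205), with a library of each group inside the range of the other.

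Not every sarcomere gene was higher. Tcap, which caps titin at the Z disc, was at 1188, 1043, 1519 and 1015 CPM in nanoplastics mice, against 2347, 1976 and 1019.8 CPM in control mice, a difference of -0.59 (SE 0.26, edgeR adjusted p = 0.367). Its overlap came from the shallow control mouse 3, and with that library and nanoplastics mouse 4 left out Tcap was among the called genes, as lower. Cox6a2, Ttn and Tnnc1 were then called as higher. The median of the list was 0.12 without nanoplastics mouse 4, the library with atrial muscle transcripts. In bulk tissue fewer cells of a type and less RNA per cell cannot be told apart, and the same holds for a larger share of muscle in a piece.

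The myosins and natriuretic peptides, the classic markers of a strained heart, gave no call with edgeR, while DESeq2 called Myh6. Nppa, the atrial natriuretic peptide, was at 70.4, 141, 159 and 659 CPM in nanoplastics mice, against 128, 36.2 and 273 CPM in control mice (log2 difference 0.96, SE 1.08, edgeR adjusted p = 0.749). The highest library was nanoplastics mouse 4, and without it the difference was -0.07. Nppb, the ventricular peptide, was at 377, 792, 631 and 534 CPM in nanoplastics mice, against 466, 203 and 974 CPM in control mice (0.13, SE 0.58, edgeR adjusted p = 0.946). Its control mice spanned the whole range of the nanoplastics mice, and its sign changed with libraries scaled by their totals alone. Myh6, the main myosin of the adult mouse heart, was at 2032, 1739.7, 2018 and 4075 CPM in nanoplastics mice, against 1203, 1619 and 1626 CPM in control mice (0.74, SE 0.33, edgeR adjusted p = 0.39). It was called as higher by DESeq2 (0.76, SE 0.24, DESeq2 adjusted p = 0.0319) and by edgeR without the low-count filter (0.77, SE 0.15, edgeR adjusted p = 6.26e-04), and in no other of its 18 alternatives, over which adjusted p reached 0.667. Without nanoplastics mouse 4 the difference was 0.39. Myh7, the slow myosin, was at 37.5, 33.7, 39.1 and 111 CPM in nanoplastics mice, against 21.3, 37.0 and 38.6 CPM in control mice (0.81, SE 0.50, edgeR adjusted p = 0.523). In both myosins nanoplastics mouse 4 was the highest library of all, and the part of its atrial transcripts in these values was not tested.

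For the start sites of the contractile genes, the same windows are shown, here with TATAA in capitals, searched on both strands in the 45 bases before the start. They are the 4 higher members with the smallest p and a single annotated start.
Ttn, chr2:76982528-76982592, minus strand: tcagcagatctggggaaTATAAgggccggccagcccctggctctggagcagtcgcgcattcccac
Tnni3, chr7:4522509-4522573, minus strand: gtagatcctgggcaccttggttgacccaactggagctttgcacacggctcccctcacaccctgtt
Xirp2, chr2:67445957-67446021, plus strand: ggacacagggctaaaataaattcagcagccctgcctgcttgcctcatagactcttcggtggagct
Tnnc1, chr14:31208267-31208331, plus strand: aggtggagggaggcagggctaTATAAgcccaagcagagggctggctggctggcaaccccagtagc
TATAA was present in 6 of 33 sarcomere genes with a window (18.2%), against 1882 of 27025 genes (6.96%) in all, and in 4 of 59 ribosomal protein genes (6.78%).

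Genes of rhythm showed no call with edgeR. DESeq2 called none either, but it gave no adjusted p for Kcnip2, Atp1b1 and Gja1 and so could not call them. Of 35 ion channel and pump genes only 12 passed the count filter, and 2 of these (16.7%) were lower and none higher at an unadjusted p under 0.05 (median -0.20). The shares over all genes tested were 7.39% lower and 6.73% higher. Kcnip2, the partner subunit of the transient outward potassium channel, was at 12.7, 9.48, 18.3 and 18.8 CPM in nanoplastics mice, against 28.1, 20.8 and 25.0 CPM in control mice, a log2 difference of -0.73 without overlap (SE 0.27, edgeR adjusted p = 0.206). Atp1b1, a subunit of the sodium pump, differed by -0.48 (SE 0.20, edgeR adjusted p = 0.273). Gja1, the gap junction protein connexin 43, was at 117, 82.1, 86.1 and 119.7 CPM in nanoplastics mice, against 112, 123 and 125 CPM in control mice (-0.24, SE 0.18, edgeR adjusted p = 0.57). No member of the intercalated disc list had an unadjusted p under 0.05, of 21 tested.

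The main potassium channels were too low to test. Kcnq1, Kcnh2 and Kcnj2 had 0 to 9 counts in nanoplastics mice and 0 to 14 in control mice. A difference in these was not detectable at this depth.

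Of 26 calcium handling genes tested, 2 (7.69%) were higher and 3 (11.5%) lower at an unadjusted p under 0.05. Over all genes tested these shares were 6.73% and 7.39%, and the median of the list was 0.02. Trdn, triadin of the calcium release complex, was at 1288, 1449, 1314 and 1188 CPM in nanoplastics mice, against 953, 990.2 and 893 CPM in control mice, a difference of 0.47 without overlap (SE 0.13, edgeR adjusted p = 0.138). DESeq2 called Trdn as higher (DESeq2 adjusted p = 0.0210). S100a1, a calcium sensor that binds the release channel, differed by 0.31 (SE 0.14, edgeR adjusted p = 0.286). Jph2, which holds the tubule and store membranes together, differed by -0.88 (SE 0.34, edgeR adjusted p = 0.225), and in nanoplastics mouse 3 it reached 19.1 CPM, inside the range of the control mice. The release channel Ryr2 (0.19, SE 0.19), the L-type channel Cacna1c (-0.06, SE 0.29), the calcium pump Atp2a2 (0.17, SE 0.16) and its inhibitor Pln (0.02, SE 0.12) had edgeR adjusted p of 0.68 or more. Of these 4, Ryr2, Atp2a2 and Pln turned negative with libraries scaled by their totals alone, and Cacna1c turned positive without nanoplastics mouse 4.

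Among nuclear RNAs and splicing genes, edgeR called Neat1 and DESeq2 called Malat1 (DESeq2 adjusted p = 0.0303). By edgeR 9 of 47 (19.1%) were lower and 1 (2.13%) higher at an unadjusted p under 0.05 (median -0.23). Over all genes tested the shares were 7.39% and 6.73%. Malat1, an abundant noncoding RNA of nuclear speckles, was at 462, 479, 506 and 453 CPM in nanoplastics mice, against 697, 709 and 584 CPM in control mice, a difference of -0.49 without overlap (SE 0.14, edgeR adjusted p = 0.138). Son, a scaffold protein of the same speckles, was the higher one, at 0.59 (SE 0.18, edgeR adjusted p = 0.149). Neat1 and Malat1 therefore lay on the same side, while Son lay on the other.

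The nuclear receptors Esrra and Ppara, which drive fat and mitochondrial metabolism, stood lower without passing the test. Of 35 fatty acid oxidation genes tested, 3 (8.57%) were higher and 5 (14.3%) lower at an unadjusted p under 0.05. Over all genes tested these shares were 6.73% and 7.39%, and the median of the list was 0.02. Ppara, the receptor that turns on fatty acid use, was at 6.03, 4.21, 7.82 and 3.32 CPM in nanoplastics mice, against 13.6, 14.1 and 9.09 CPM in control mice, a difference of -1.25 without overlap (SE 0.36, edgeR adjusted p = 0.138). Like Esrra it is a transcription factor of low level, with 9, 4, 9 and 3 counts in nanoplastics mice and 32, 34 and 4 counts in control mice. Ech1, an enzyme of the fatty acid pathway, differed by 0.39 (SE 0.13, edgeR adjusted p = 0.169).

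In glycolysis and the citric acid cycle, 2 of 43 genes (4.65%) were higher and 3 (6.98%) lower, against 6.73% and 7.39% over all genes tested (median of the list 0.06). Pgam2, the muscle form of phosphoglycerate mutase, was at 469.8, 498, 488 and 453 CPM in nanoplastics mice, against 637, 750.5 and 740.5 CPM in control mice, a difference of -0.57 without overlap (SE 0.13, edgeR adjusted p = 0.0865). DESeq2 called Pgam2 as lower (DESeq2 adjusted p = 0.0146). Acss1, the mitochondrial acetyl-CoA synthetase, differed by -0.99 (SE 0.24, edgeR adjusted p = 0.0979). Mfn2, which fuses mitochondria, differed by -0.63 (SE 0.20, edgeR adjusted p = 0.151) and Chchd10, a protein of the space between the mitochondrial membranes, by -0.52 (SE 0.17, edgeR adjusted p = 0.171). Mitochondrial ribosomal proteins had 8 members (10.4%) higher and 4 (5.19%) lower of 77 (median 0.07).

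For the lists of protein quality and translation genes that follow, the shares over all genes tested were 6.73% higher and 7.39% lower. Of 35 heat shock and chaperone genes, 1 was higher and 3 lower at an unadjusted p under 0.05, and Hspb7, a small heat shock protein of the sarcomere, was at 436, 458, 502 and 486 CPM in nanoplastics mice, against 757, 613 and 666 CPM in control mice, a difference of -0.53 without overlap (SE 0.14, edgeR adjusted p = 0.138). DESeq2 called Hspb7 as lower (DESeq2 adjusted p = 0.0222). Of 39 translation factors, 2 were higher and 3 lower, with Eef2, the elongation factor that moves the ribosome along, at -0.82 (SE 0.20, edgeR adjusted p = 0.0865). Of 36 proteasome genes, 6 were higher and 2 lower (median 0.04). The endoplasmic reticulum stress list had 1 member higher and 1 lower of 17.

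The redox list had 4 members (11.4%) higher and 1 (2.86%) lower of 35 at an unadjusted p under 0.05, with a median of 0.15. The shares over all genes tested were 6.73% and 7.39%. Gsta4, a glutathione transferase that clears lipid aldehydes, was at 268, 277, 243 and 283 CPM in nanoplastics mice, against 136, 148 and 238 CPM in control mice, a difference of 0.67 without overlap (SE 0.18, edgeR adjusted p = 0.138). DESeq2 called Gsta4 as higher (DESeq2 adjusted p = 0.0210). With edgeR it was called, as higher, without the low-count filter, without control mouse 3, and without both nanoplastics mouse 4 and control mouse 3. Mgst3, a membrane-bound enzyme of the same chemistry, differed by 0.48 (SE 0.14, edgeR adjusted p = 0.138), and DESeq2 called it as higher (DESeq2 adjusted p = 0.0314). Txnrd1, a thioredoxin reductase and a common target of the NRF2 stress response, differed by -0.66 (SE 0.31, edgeR adjusted p = 0.329). Hmox1, haem oxygenase, was too low to test, with 0 to 2 counts in nanoplastics mice and 1 to 4 counts in control mice.

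Matrix, immune and stress signalling lists held no gene called by edgeR. For comparison with the counts that follow, 6.73% of all genes tested were higher and 7.39% lower. Of 26 extracellular matrix genes tested, 1 was higher and 1 lower at an unadjusted p under 0.05, the lower one being Serpinh1 and the higher one Dcn, the small proteoglycan decorin (0.39, SE 0.15, edgeR adjusted p = 0.205). Col3a1, a fibrillar collagen, was at 10.7, 21.1, 16.5 and 23.3 CPM in nanoplastics mice, against 14.1, 24.1 and 15.9 CPM in control mice (-0.11, SE 0.30, edgeR adjusted p = 0.9). Col1a1 was too low to test. Inflammation had 0 members higher and 1 lower of 11 (median -0.16), and the interferon response had 2 higher and 1 lower of 16. B2m, the light chain of class I antigen presentation, was at 536, 494, 343 and 633 CPM in nanoplastics mice, against 269, 361 and 332 CPM in control mice (0.65, SE 0.18, edgeR adjusted p = 0.138), and DESeq2 called it as higher (DESeq2 adjusted p = 0.0256). Immediate early genes had 2 members higher and 2 lower of 11 (median -0.36), p53 targets 1 higher and 1 lower of 13 (median -0.24), and hypoxia genes 0 higher and 1 lower of 13 (median -0.14). Rgs2, which damps signals of G protein coupled receptors, was at 83.1, 40.0, 67.8 and 43.2 CPM in nanoplastics mice, against 34.5, 37.4 and 15.9 CPM in control mice, a difference of 0.87 without overlap (SE 0.26, edgeR adjusted p = 0.144).

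**Figure D3:**
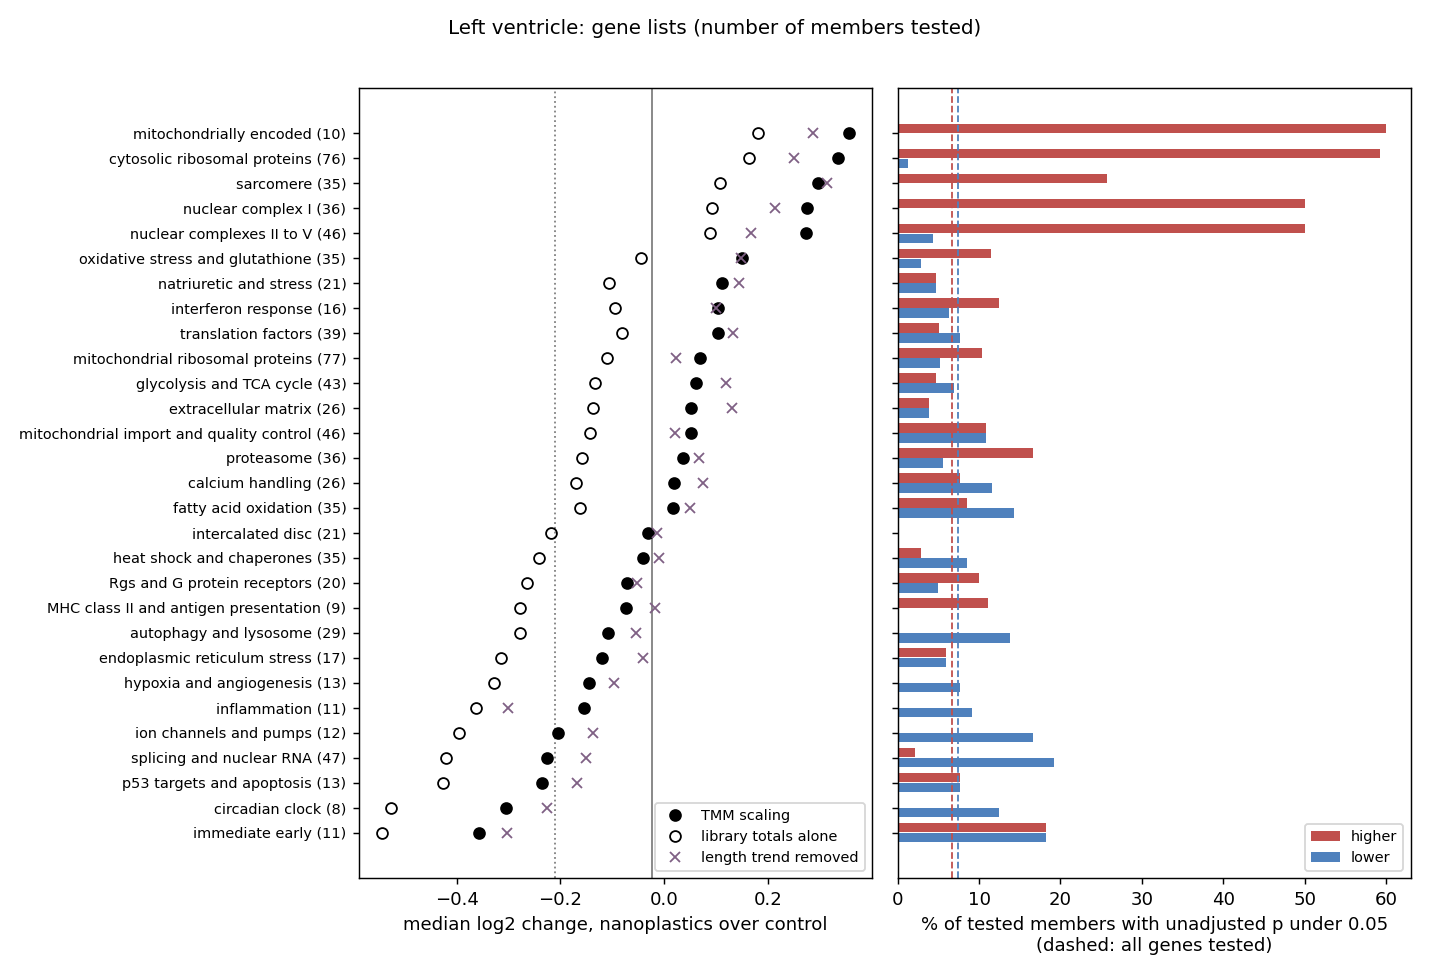
Gene lists with the number of members tested. At the left is the median log2 difference of the members, nanoplastics over control, under 3 scalings (lines give the median of all genes, solid with TMM and dotted with library totals alone), and at the right the percentage of members higher or lower at an unadjusted p under 0.05, dashed lines giving all genes tested. Cytosolic ribosomal proteins, with 59.2% higher, and the respiratory complexes stand to the right of the background of 6.73%.

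Summed markers of other cell types overlapped between the groups in every list. Fibroblast markers summed to 1221 to 1609 CPM in nanoplastics mice and 1069 to 1456 CPM in control mice, endothelial markers to 994 to 1281 CPM in nanoplastics mice and 997 to 1250.5 CPM in control mice, and macrophage markers to 160.4 to 322 CPM in nanoplastics mice and 155 to 380.1 CPM in control mice. Smooth muscle and pericyte markers summed to 199 to 392 CPM in nanoplastics mice and 351 to 397 CPM in control mice. The ventricular muscle list summed to 52154 to 61055 CPM in nanoplastics mice and 44605 to 52596 CPM in control mice. Beside Myl2 it holds Tnni3 and Tnnt2, at 20218 and 16047 CPM in nanoplastics mouse 4, and Myh6. Myh6 is also made in atrial muscle, so this sum does not tell ventricular from atrial muscle. Erythroid markers summed to 763, 632, 838 and 1845 CPM in nanoplastics mice, against 73.8, 641 and 960.2 CPM in control mice, the highest being nanoplastics mouse 4 and the lowest control mouse 1. T and B cell markers reached at most 3.69 CPM in sum, mesothelial markers 4.70 CPM, and Schwann and neuronal markers 8.65 CPM. Adipocyte markers summed to 24.9 to 51.1 CPM in nanoplastics mice and 33.9 to 52.6 CPM in control mice. Most of that sum was Cidea, a lipid droplet gene, at 21.6 to 49.4 CPM in nanoplastics mice and 33.9 to 50.3 CPM in control mice, and Adipoq and Plin1 reached at most 2.16 CPM.

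The measures whose groups did not overlap concerned the kind of transcript counted. Over the counts of nuclear genes, the median length of the annotated transcript was 1499, 1526, 1598 and 1499 nt in nanoplastics mice, against 1633, 1749 and 1633 nt in control mice (exact two-sided permutation p = 0.0571). The share of counts on pseudogenes was 1.21 ± 0.0801% in nanoplastics mice and 1.06 ± 0.0234% in control mice (SD over 4 and 3 mice), with the same exact permutation p. After adjustment over the 19 measures both stood at 0.543, which is also the value of a single measure at the smallest possible p, so 1 measure alone could not pass. Among single genes the same was seen by length. Tested genes were split by annotated length into 5 groups of equal size. In the shortest group, 57 to 1460 nt, 193 of 1078 genes (17.9%) were higher and 51 (4.73%) lower at an unadjusted p under 0.05, with a median log2 difference of 0.15. In the next, 1462 to 2320 nt, 55 were higher and 100 lower, and in the longest, 4627 to 106824 nt, 39 were higher and 60 lower.

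Many respiratory and ribosomal protein transcripts are short, with a median annotated length of 1100 nt in the ribosomal list against 2816.5 nt over all genes, so the lists were also read after each library had its length trend taken out. Their medians were then 0.25 for cytosolic ribosomal proteins, 0.21 for nuclear complex I and 0.17 for complexes II to V, beside 0.00 for all genes, and 29 of 76, 13 of 36 and 15 of 46 members were higher at an unadjusted p under 0.05, against 329 of all 5440 genes (6.05%). Ttn goes against the trend, being the longest transcript tested and higher. With the trend removed, 5 genes (0.0919%) were called, among them mt-Nd2, mt-Nd4 and Ndufv3 as higher and Neat1 and Pgam2 as lower.

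**Figure D4:**
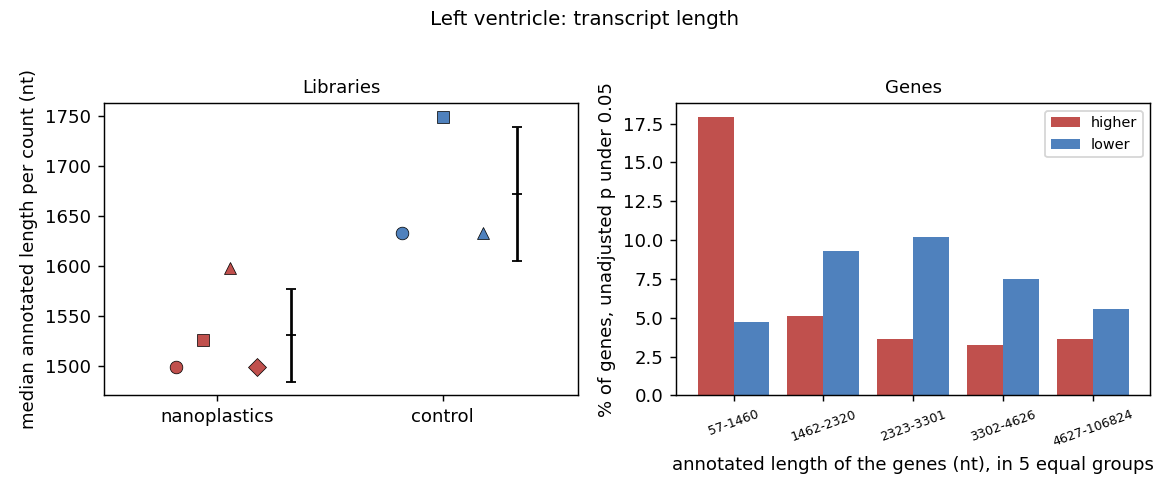
Left, the median length in nt of the annotated transcript over the counts of each library, nanoplastics mice before control mice, mitochondrially encoded genes not included, with the mean and SD (the axis does not start at 0). Right, the percentage of genes higher or lower at an unadjusted p under 0.05 in 5 groups of annotated length, and in the shortest group 17.9% were higher and 4.73% lower.

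The other sections of the same mice served as a second reading of the 10 leading genes, from other libraries of the same animals. The right ventricle of nanoplastics mouse 2 held few counts, so values are given with and without it. Of 4489 genes tested there, 39 (0.869%) were called with that library, and without it 68 of 5201 (1.31%). In the right ventricle mt-Nd4 differed by 0.71 (SE 0.57, edgeR adjusted p = 0.631) with mouse 2 and by 0.97 (SE 0.18, edgeR adjusted p = 0.0153) without it. For mt-Nd2 the difference was 0.56 (SE 0.58, edgeR adjusted p = 0.732) with mouse 2 and 0.79 (SE 0.17, edgeR adjusted p = 0.0279) without it. Neat1 differed by -1.35 (SE 0.33, edgeR adjusted p = 0.0112) with it and by -1.43 (SE 0.34, edgeR adjusted p = 0.0310) without it, and Ttn by 0.74 (SE 0.36, edgeR adjusted p = 0.336) with it and 0.90 (SE 0.20, edgeR adjusted p = 0.0286) without it. Both mitochondrial genes, Neat1 and Ttn thus passed the test in the right ventricle when that library was left out.

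In the right ventricle the Neat1 levels were 8.31, 98.9, 15.4 and 31.4 CPM in nanoplastics mice 1 to 4, against 49.1, 45.9 and 46.8 CPM in control mice, where the 98.9 CPM of mouse 2 is a single count. In the atrial section they were 14.2, 19.4, 28.0 and 23.7 CPM in nanoplastics mice, against 45.3, 62.4 and 38.9 CPM in control mice, a log2 difference of -1.17 (SE 0.26, edgeR adjusted p = 0.305). Every atrial nanoplastics library was again below every control library. The atrial comparison called 0 of 5502 genes (0%) with edgeR, and 674 had an unadjusted p under 0.05. There mt-Nd2 differed by 0.45 (SE 0.20), mt-Nd4 by 0.23 (SE 0.25) and Ttn by -0.08 (SE 0.31).

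The 6 lower genes next to the threshold were chosen by their left ventricular p, and their differences in the other sections were also negative. In the right ventricle with mouse 2 they were -0.21 for Stub1 (SE 0.25), -0.27 for Esrra (SE 0.35) and -0.18 for C1qbp (SE 0.24). In the atrial section they were -0.17 for Stub1 (SE 0.22), -0.48 for Esrra (SE 0.32) and -0.08 for C1qbp (SE 0.21). Serpinh1 differed by -0.63 (SE 0.30) in the right ventricle and by -0.37 (SE 0.22) in the atrial section. For Mid1ip1 the differences were -0.93 (SE 0.33) in the right ventricle and -0.53 (SE 0.24) in the atrial section. Rhobtb1 stood at -1.55 (SE 0.49) in the right ventricle, farther from 0 than in the left, and at -0.34 (SE 0.30) in the atrial section. None of these 6 was called in either section. A difference of the treatment effect between sections was tested over all 21 libraries with the mouse as a block. No gene passed, either for the left against the right ventricle (149 genes at an unadjusted p under 0.05, and 0 called also without mouse 2) or for the left ventricle against the atrial section (309). The smallest adjusted p was 0.0895, for Xirp2, whose left ventricular difference exceeded the atrial one by 1.14 on the log2 scale. None of these genes is therefore shown to differ in the left ventricle alone.

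**Figure D5:**
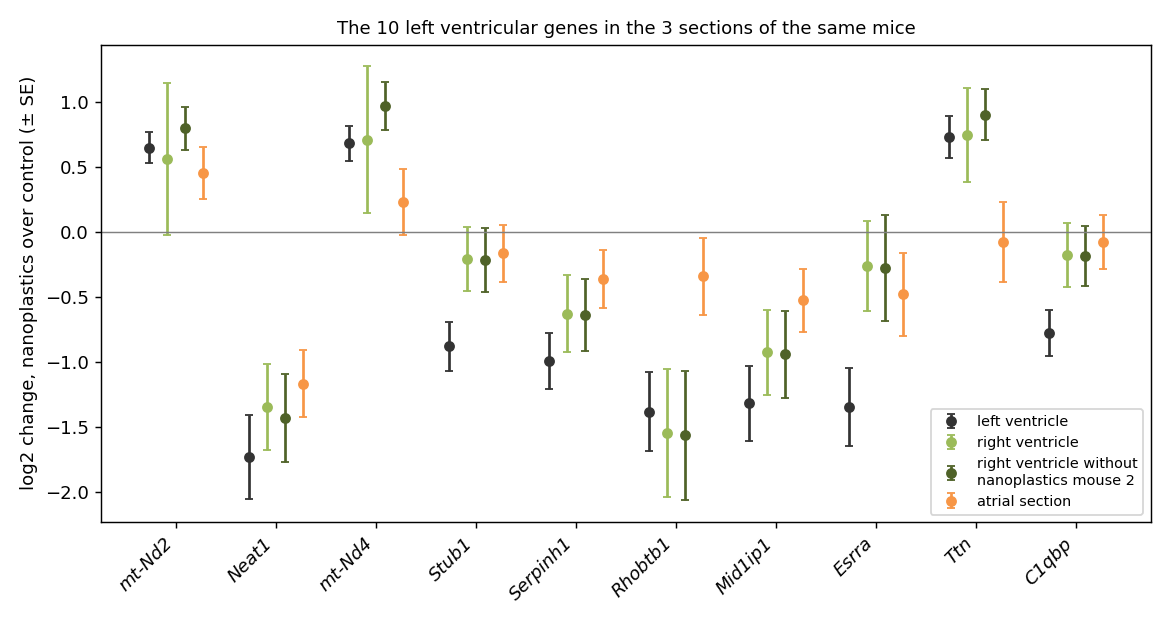
Log2 difference, nanoplastics over control, with its SE for the 10 leading left ventricular genes in the left ventricle, the right ventricle with and without nanoplastics mouse 2, and the atrial section. Neat1 lies between -1.74 and -1.17 in all of them, and it lies farthest from 0 in the left ventricle, as do Stub1, Serpinh1, Mid1ip1, Esrra and C1qbp, while Rhobtb1 does so in the right ventricle. The 10 genes were chosen by their left ventricular p, so the sections are not compared on equal terms.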

How the data were processed

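RNA of 7 left ventricles was analysed from raw counts per gene symbol, a table of 20960 genes and 21 libraries as deposited by the authors. Per the labels' protocols, oligo-dT beads caught polyA RNA, which was barcoded at its 5' end and pooled before amplification, and the submitters' processing notes name STAR. The build, annotation, counting program, strand and molecular identifiers are not stated, so floors in CPM cover counting error only. The SEs, SDs and p-values of the group comparisons include the spread between mice.

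Counts were fitted in R 4.3.3 with edgeR 4.0.16 (filterByExpr, TMM, robust quasi-likelihood, Benjamini-Hochberg), and DESeq2 1.42.0 was an alternative. Group members were 4 nanoplastics and 3 control mice without a block, and the labels give no batch. Library measures had exact permutation tests over 35 splits. Marker sums are CPM of library totals. Lengths, gene types and overlaps came from GENCODE M21 (20504 symbols matched), mitochondrial copies from BLAST 2.17.0, and promoters from RefSeq.

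Named were called genes with a mean of at least 10 counts or, with fewer than 10 called, the 10 smallest p, leaving out predicted genes named by number, plus 20 fixed heart genes, of which 1 is not reported here. Further list members were added after their values were seen. Members and lists were chosen with earlier results of these data known. On simulated data 73% of 2-fold and 90% of 4-fold changes were recovered over 5245 genes, with 4 false calls. The simulation drew each gene on its own and held no atrial transcripts and no length trend, so recovery in the real libraries is not known from it. Values of the same mice without 1 right ventricular library were chosen after seeing the data.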

Additional observations from a re-analysis of the deposited data

Results flagged for a closer look

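Within the 4 nanoplastics mice, 12 of 93 sets of values had a mouse far from the other 3, where chance gives about 1 in 20, and 8 of the 12 were nanoplastics mouse 4. This mouse stood apart in Nppa at 659 CPM, in Myh6 at 4075 CPM, in Myh7 at 111 CPM, in Rpl8 at 343 CPM and in mt-Cytb at 53373 CPM. It also stood apart in the summed markers of atrial muscle at 2296 CPM, of the erythroid line at 1845 CPM and of skeletal muscle at 1411 CPM. The skeletal muscle sum of this mouse was mostly Ckm at 1272 CPM and Acta1 at 138 CPM, with Tnnt3 at 1.08 CPM. In control mice 1 to 3 that sum was 857, 1340 and 1475 CPM. Myh6, Myh7 and Nppa are also made in atrial muscle, and the part of the atrial transcripts in them was not tested. The other sets were Pln at 6119 CPM and Tnni3 at 23471 CPM in nanoplastics mouse 1, Rab8a, a vesicle transport GTPase, at 9.48 CPM in nanoplastics mouse 2, and Jph2 at 19.1 CPM in nanoplastics mouse 3. The control group, with 3 mice, is too small for this comparison.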

How the results depend on the processing

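The count of 3 called genes was 80 with DESeq2, 23 with library totals alone (0 higher, 23 lower), 30 without the low-count filter, 31 without nanoplastics mouse 4 and control mouse 3, and 5 with the length trend removed. It was 0 with at least 10 counts in every library (518 genes at an unadjusted p under 0.05), 0 without the robust option (767) and 0 with libraries thinned to 413436 counts (235). Leaving out 1 mouse at a time gave 0 to 21 called genes. It was 3 with RLE factors and 4 with all 21 libraries. With a replicate block over mice 1 to 3 it was 2. Numbers name different animals, and the deviations of same-numbered mice correlated at 0.04, 0.06 and -0.15 across genes, so the numbers do not pair mice. Of 1174 values of 68 named genes under 18 alternatives, 23 in 9 genes changed sign, none of them called. With library totals alone Nppb was -0.036, Ryr2 -0.014, Atp2a2 -0.019 and Pln -0.16. With the length trend removed Nppb was -0.021. Without nanoplastics mouse 4 and control mouse 3 Cacna1c was 0.24. With the block Cacna1c was 0.074 and mt-Co1 0.14, and after thinning Pln was -0.0032. Leaving out 1 mouse at a time gave -0.066 to 1.64 for Nppa, -0.28 to 0.81 for Nppb, -0.35 to 0.12 for Cacna1c, -0.048 to 0.36 for Ryr2, -0.046 to 0.090 for Pln, -0.32 to 0.25 for Col3a1, -0.45 to 0.23 for mt-Nd6 and -0.27 to 0.34 for mt-Co1. Except for fewer genes tested or fewer mice, the cause was not tested. Median log2 of all genes was -0.21 with library totals alone, against -0.02. Depth limits channels, collagens and other genes of few counts.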

Other observations

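Beyond the genes named above, 3 genes in none of the lists stood lower in nanoplastics mice without being called by edgeR. Rab8a, a GTPase that directs vesicles to the cell surface, was at 6.70, 9.48, 6.95 and 6.65 CPM in nanoplastics mice, against 17.9, 19.5 and 13.6 CPM in control mice, a log2 difference of -1.28 without overlap (SE 0.30, edgeR adjusted p = 0.0865). Chmp4b, a subunit of the ESCRT machinery that cuts membrane necks, was at 20.1, 23.2, 23.5 and 24.4 CPM in nanoplastics mice, against 53.2, 41.1 and 29.5 CPM in control mice, a difference of -0.96 without overlap (SE 0.23, edgeR adjusted p = 0.0865). Tspan3, a membrane-spanning tetraspanin, was at 182, 183, 206 and 131 CPM in nanoplastics mice, against 322, 251 and 245 CPM in control mice, a difference of -0.64, also without overlap (SE 0.17, edgeR adjusted p = 0.138), and DESeq2 called it as lower (DESeq2 adjusted p = 0.0301). These 3 genes were chosen after their values were seen and form no tested group. In all, 19 genes had an edgeR adjusted p under 0.1, of which 6 were higher and 13 lower.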
